A study of Homo sapiens with 6 samples.

Results

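The BMP and TGF-beta target genes described here are 10 genes of bone morphogenetic protein (BMP) and transforming growth factor beta (TGF-beta) signaling, measured in HCT116SCs after transfection with PSCA siRNA. They were chosen by name, as rows of the deposited expression table: ID1, ID2, ID3, ID4, BMP4, SMAD4, SMAD6, SMAD7, TGFBR1 and TGFBR2, which are 10 of the 58735 genes in the table. HCT116SCs are CD44+CD326+ cells that were sorted with magnetic beads from HCT116, an established colorectal cancer line, and grown as tumor spheres without serum in 20 ng/mL each of EGF and bFGF. Negative control siRNA (NC, labelled WT) was given to the cells of 3 libraries, and the other 3 came from cells that received siRNA against PSCA (siPSCA, labelled PSCA knockdown), all harvested after 48 h. Which of the study's PSCA siRNA sequences went into the sequenced cells is not given in the sources used here, and all libraries derive from 1 cell line, although the titles of siPSCA 2 and siPSCA 3 carry other HCT numbers than their remaining labels. The labels do not say whether replicates were separate cultures, so the p-values measure only the spread between these libraries, which may be technical.

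BMPs and TGF-betas are secreted ligands that bring together type II and type I serine/threonine kinase receptors. The type I receptor then phosphorylates receptor-regulated SMADs, SMAD1, SMAD5 and SMAD9 on the BMP side and SMAD2 and SMAD3 on the TGF-beta side, and these enter the nucleus with the shared partner SMAD4. Among the best known BMP-responsive transcripts are the ID genes, whose proteins bind E proteins such as TCF3 and keep them off DNA, and SMAD6 and SMAD7, which feed back to inhibit the pathway. In the intestine, BMP signaling is strongest towards the differentiated end of the crypt and restrains stem cells. HCT116 is mismatch repair-deficient and is known for frameshift alleles of TGFBR2, which a gene-level transcript value does not reveal.

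The question of the comparison was which transcripts differ between siPSCA and NC. Values are FPKM, the fragments per kilobase of gene and per unit of the library total, and reads per gene could be recovered from them as whole numbers. Reads on genes ranged from 16099716 to 17302219 per library. PSCA itself had 4, 12 and 15 reads in NC and 9, 9 and 7 in siPSCA (log2 fold change -0.07, adjusted p = 0.728). This fold change is on the log2(FPKM + 1) scale, which understates changes at such low values. The ratio of summed reads per read on genes was 0.799 (exact binomial 95% CI 0.452 to 1.40, counting error only). These reads do not tell the groups apart and do not exclude a fall of PSCA, so the groups follow the labels. The paper reports from Western blots that its PSCA siRNAs lowered PSCA protein in HCT116SCs. NC 3 stood apart from NC 1 and NC 2, at a distance of 48.1 and 45.8 on the log2 scale over all tested genes, against 31.5 between NC 1 and NC 2. Its difference from them followed GC content (Spearman -0.561 across genes, which are not independent replicates), as did the fold changes themselves (0.664 over 13792 genes). Results are therefore also given without NC 3 and from a fit corrected for the GC content and length of the genes, called the GC-corrected fit. Epithelial markers summed to FPKM 498 to 562 in NC and 492 to 508 in siPSCA, although VIL1 was near 0. Of the other markers, COL1A1 alone reached a mean FPKM of 1, with 3.35 to 5.62 in NC and 5.95 to 6.51 in siPSCA, and LUM, CD3E and CD68 were listed at 0. Leukocyte markers summed to at most 0.225 and endothelial markers to at most 0.323.

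Stretches upstream of the transcription starts of SMAD6, BMP4, ID1 and ID2 are shown, from RefSeq on GRCh38.p14. Among the 10 genes, BMP4 and ID2 carry the largest differences below, and ID1 was the most abundant in NC. SMAD6 was the only one of the 10 genes with the SMAD-binding palindrome in the bases searched. All 10 genes had a window of 250 bases before a start, 6 of them a single one. Capitals mark the motifs searched on both strands: the SMAD-binding palindrome GTCTAGAC, the GC-rich SMAD element GGCGCC, and ACGTG, the core of the hypoxia response element. These motifs do not overlap each other in the stretches shown. Each sequence reads 5′ to 3′ on the strand of its gene.
SMAD6, chr15:66701986-66702235, plus strand: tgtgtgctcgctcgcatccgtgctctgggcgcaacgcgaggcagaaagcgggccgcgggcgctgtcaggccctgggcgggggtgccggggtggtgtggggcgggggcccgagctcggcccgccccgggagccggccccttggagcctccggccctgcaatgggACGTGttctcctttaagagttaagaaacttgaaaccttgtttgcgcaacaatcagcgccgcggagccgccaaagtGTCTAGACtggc
BMP4, first of 3 starts, chr14:53955051-53955300, minus strand: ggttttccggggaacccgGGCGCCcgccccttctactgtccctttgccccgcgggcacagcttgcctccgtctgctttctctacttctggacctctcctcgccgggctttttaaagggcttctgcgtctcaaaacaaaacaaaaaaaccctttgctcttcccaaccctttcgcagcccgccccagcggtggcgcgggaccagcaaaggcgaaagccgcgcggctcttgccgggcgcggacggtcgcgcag
ID1, chr20:31605039-31605278, plus strand: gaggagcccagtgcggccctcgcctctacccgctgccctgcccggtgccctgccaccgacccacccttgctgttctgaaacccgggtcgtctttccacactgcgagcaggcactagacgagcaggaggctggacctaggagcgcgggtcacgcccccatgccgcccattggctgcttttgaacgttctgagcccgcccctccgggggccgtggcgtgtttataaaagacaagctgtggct
ID2, chr2:8681951-8681980, plus strand: tcgtcttgatagACGTGccaccttccgcca

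The palindrome begins 12 bases before the start of SMAD6, and 0.182% of all 35116 windows hold it. GGCGCC was found in windows of BMP4, SMAD4 and TGFBR1 and in 16.4% of all windows. ACGTG was found in windows of ID2, BMP4, SMAD6, TGFBR1 and TGFBR2 and in 18.5% of all windows. The windows of ID1, ID3, ID4 and SMAD7 held none of these motifs. Sequence outside the windows was not searched, so a gene without a match here may still carry the motif elsewhere. Genes with several starts had more windows in which a match could fall, with 8 for TGFBR1, 3 each for BMP4 and SMAD7 and 2 for TGFBR2. The number of genes with a match therefore cannot be set directly against a share of windows.

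BMP4, one of the main ligands of the BMP branch, was the only one of the 10 genes that passed the test as higher in siPSCA. Of the 10, 7 reached a mean FPKM of 1 and entered the test over 13796 genes. BMP4 rose and ID2, TGFBR1, SMAD4 and TGFBR2 fell at an adjusted p under 0.05, whereas ID1 and ID3 did not pass. Among all genes tested, 26.6% passed higher and 24.2% lower, 50.7% in all, so the 5 of 7 genes called (71.4%) stand against a high background. The values of SMAD7, SMAD6 and ID4, which were below the minimum, come from the model over all 34391 genes with a read, where 16.3% of genes passed and none of these 3 did. Under the rule of an unadjusted p below 0.05 with a log2 fold change past 0.5 in size, which 24.9% of tested genes met, BMP4 and ID2 were the genes called. The NC and siPSCA values did not overlap for 5 of the 7 tested genes, against 64.5% of all tested genes.

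BMP4 (ENSG00000125378, chromosome 14 from 53949736 to 53958761, minus strand) had an FPKM of 74.8, 75.3 and 67.1 in NC 1, NC 2 and NC 3 and of 144, 141 and 133 in siPSCA 1, siPSCA 2 and siPSCA 3. Every siPSCA library was above every NC library. The means were 72.4 ± 4.61 and 139 ± 5.83 (SD, n = 3 each), with a ratio of 1.92. On the log2(FPKM + 1) scale the fold change was 0.94 (SE 0.064, adjusted p = 0.00048), and by size it ranked 748 among the tested genes. Summed reads rose from 11476 to 22686. With single libraries left out, the log2 fold change lay between 0.88 and 0.97 and always passed. It was 0.71 in the GC-corrected fit (adjusted p = 0.000143).

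The 4 ID genes behaved unequally. They encode helix-loop-helix proteins without a DNA-binding region and are close relatives, but their transcripts in GENCODE 29 shared no stretch of 50 bases with one another. ID1, ID3 and ID4 shared none with any other gene, and ID2 shared 14 of 2150 such stretches, with AC104849.1.

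ID2 (ENSG00000115738, chromosome 2 from 8678845 to 8684453, plus strand) had an FPKM of 41.5, 39.8 and 40.9 in NC and 20.0, 18.1 and 20.0 in siPSCA. The groups were well apart, and NC 3 was level with the other NC libraries (1.00 times their mean). ID2 fell from 40.8 ± 0.853 to 19.4 ± 1.06 (SD, n = 3 each), with a ratio of 0.475 and a log2 fold change of -1.04 (SE 0.055, adjusted p = 0.000251). By p it ranked 50 and by size 522 of 13796. The log2 fold change lay between -1.06 and -0.99 with single libraries left out and was -1.21 in the GC-corrected fit, past the threshold each time. ID2-AS1 overlaps ID2 on the opposite strand with an FPKM of 0.109 to 0.507, and the strand setting of the counting is not given in the sources used here. Over the 6 libraries the protein-coding genes whose log2(FPKM + 1) was most like that of ID2 were EGLN1 (Pearson r = 0.9996), COPB1 (0.9989) and INSIG1 (0.9987). EGLN1 encodes an oxygen-sensing prolyl hydroxylase, COPB1 a subunit of the COPI vesicle coat and INSIG1 a sterol-regulated ER protein. With 2 groups of 3 libraries such values mostly repeat the group difference, and 210 genes lay above 0.99.

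ID1 (ENSG00000125968, chromosome 20 from 31605283 to 31606515, plus strand), the most abundant of the 10 genes in NC, had an FPKM of 169, 159 and 98.9 in NC and 103, 99.7 and 91.6 in siPSCA. NC 3 lay within the siPSCA range, so the groups overlapped. The means were 142 ± 38.0 and 98.1 ± 5.87 (SD, n = 3 each), and the log2 fold change of -0.50 (SE 0.20, 95% CI -0.98 to -0.01) did not pass (adjusted p = 0.0817). Without NC 3 it was -0.74 (adjusted p = 0.000427) and in the GC-corrected fit -0.80 (adjusted p = 0.00479), past the threshold in both fits. Of the 6 fits that left out a single library, 1 passed, the one without NC 3. The log2 fold change in these 6 fits ranged from -0.74 to -0.35, with an adjusted p of up to 0.202.

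ID3 (ENSG00000117318, chromosome 1 from 23557918 to 23559794, minus strand) showed the same low NC 3, with an FPKM of 39.8, 41.4 and 27.6 in NC and 37.9, 35.7 and 35.8 in siPSCA. The siPSCA values lay inside the NC range. The means were 36.3 ± 7.56 and 36.5 ± 1.25 (SD, n = 3 each), with a log2 fold change of 0.03 (SE 0.15, 95% CI -0.34 to 0.40, adjusted p = 0.884). Without NC 3 the direction turned and the gene passed, at -0.15 (adjusted p = 0.0261). It was -0.25 in the GC-corrected fit, without passing (adjusted p = 0.0807).

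ID4 (ENSG00000172201, chromosome 6 from 19837386 to 19840684, plus strand) was close to the limit of detection. It had 11, 14 and 19 reads in NC and 17, 10 and 15 in siPSCA, and a difference was not detectable at this depth. The ratio of summed reads per read on genes, 0.946, had an exact binomial 95% confidence interval of 0.605 to 1.48, which covers counting error only. The antisense gene AL022068.1 overlaps ID4, with an FPKM of at most 0.158.

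Ratios between genes within a library do not depend on the library total. The FPKM ratio of ID1 to ID3 was 4.25, 3.85 and 3.59 in NC and 2.72, 2.79 and 2.56 in siPSCA. All 3 siPSCA ratios were lower although ID1 itself overlapped between groups, and NC 3 was here close to the other NC libraries. The GC contents of the longest transcripts of ID1 and ID3 are near each other, at 58.6% and 57.2%. ID2 to ID3 was 1.04, 0.963 and 1.48 in NC and 0.527, 0.508 and 0.557 in siPSCA. The ratio of the ligand BMP4 to ID2 went from 1.78 ± 0.126 to 7.21 ± 0.560 and that of BMP4 to ID1 from 0.531 ± 0.128 to 1.42 ± 0.0261 (SD, n = 3 each). For each of these 4 ratios the groups did not overlap, and the exact permutation test gave p = 0.1 (2-sided), the smallest that 3 libraries against 3 allow. Except for ID1 to ID3, this separation was already fixed by the ranges of the single genes given above. Those ratios therefore add no evidence to the single-gene values. The 6 ratios computed were chosen after the values were seen, so these p-values are descriptions, and adjustment over 6 cannot lower them.

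The signal-transducing SMAD4 and the inhibitory SMAD6 and SMAD7 were all lower in siPSCA without overlap of the groups, but SMAD4 was the one that passed the test. Groups did not overlap for 64.5% of all tested genes, which include SMAD4 but not SMAD6 and SMAD7. SMAD4 (ENSG00000141646, chromosome 18 from 51028394 to 51085045, plus strand) had an FPKM of 6.85, 7.12 and 7.68 in NC and 5.26, 5.70 and 5.04 in siPSCA. The means were 7.22 ± 0.424 and 5.34 ± 0.336 (SD, n = 3 each), with a ratio of 0.739 and a log2 fold change of -0.38 (SE 0.067, adjusted p = 0.0059). It passed with any single library left out (-0.42 to -0.34). In the GC-corrected fit it was -0.03 (adjusted p = 0.702), and the GC content of SMAD4, 41.1%, is low beside the median of 48.1% of the tested genes. The transcripts of SMAD4 share 5.84% of their 50-base stretches with AC091551.1, a gene on the same strand that was listed at 0 in all libraries.

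SMAD7 (ENSG00000101665, chromosome 18 from 48919853 to 48952052, minus strand) blocks type I receptors of both branches. It had 96, 93 and 97 reads in NC and 56, 71 and 47 in siPSCA, or an FPKM of 1.14, 1.06 and 1.12 against 0.658, 0.794 and 0.513. The ratio of summed reads per read on genes was 0.603 (exact binomial 95% CI 0.496 to 0.730). In the model without a minimum the log2 fold change was -0.35 (SE 0.11, adjusted p = 0.0925), a scale that understates changes at such low values. With a pseudocount of 0.1 it was -0.69 without passing, and limma-voom on the recovered reads gave -0.75 (adjusted p = 0.0208).

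SMAD6 (ENSG00000137834, chromosome 15 from 66702228 to 66782848, plus strand), the inhibitor more selective for BMP signaling and the gene whose upstream window holds the palindrome shown above, had 68, 86 and 63 reads in NC and 46, 54 and 57 in siPSCA. The ratio per read on genes was 0.717 (exact binomial 95% CI 0.580 to 0.884). Its log2 fold change of -0.15 (SE 0.078) did not pass (adjusted p = 0.287) and was -0.32 in the GC-corrected fit (adjusted p = 0.0410), where SMAD7 passed as well at -0.55 (adjusted p = 0.0238). For genes under the minimum, the GC-corrected and limma-voom values come from fits over all genes with a read. The share of all genes that passed in those fits is not given here. For low genes the GC-corrected fit also moves values by itself: BMPR1B, with 5 reads in NC and 8 in siPSCA, passed in it at 0.17.

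Both TGF-beta receptors fell modestly. TGFBR1 (ENSG00000106799, chromosome 9 from 99104038 to 99154192, plus strand), the type I receptor, had an FPKM of 13.1, 13.2 and 13.7 in NC and 10.8, 10.6 and 10.9 in siPSCA. TGFBR1 thus went from 13.3 ± 0.342 to 10.8 ± 0.167 (SD, n = 3 each), which is a log2 fold change of -0.28 (SE 0.047, adjusted p = 0.00451). TGFBR2 (ENSG00000163513, chromosome 3 from 30606502 to 30694142, plus strand), the type II receptor, had 7.70, 7.01 and 7.02 in NC and 5.35, 5.59 and 6.0 in siPSCA. TGFBR2 went from 7.24 ± 0.399 to 5.65 ± 0.326 (SD, n = 3 each), which is a log2 fold change of -0.31 (SE 0.065, adjusted p = 0.00973).

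The groups were apart for each receptor, and both passed with any single library left out. The GC-corrected fit told them apart: TGFBR2 stayed at -0.32 (adjusted p = 0.0107), whereas TGFBR1, with a GC content of 39.0%, went to 0.02 (adjusted p = 0.650). The ratio of TGFBR1 to TGFBR2 within a library was 1.85 ± 0.131 in NC and 1.91 ± 0.0965 in siPSCA (SD, n = 3 each), with overlapping groups (exact permutation test, 2-sided p = 0.5).

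**Figure D1:**
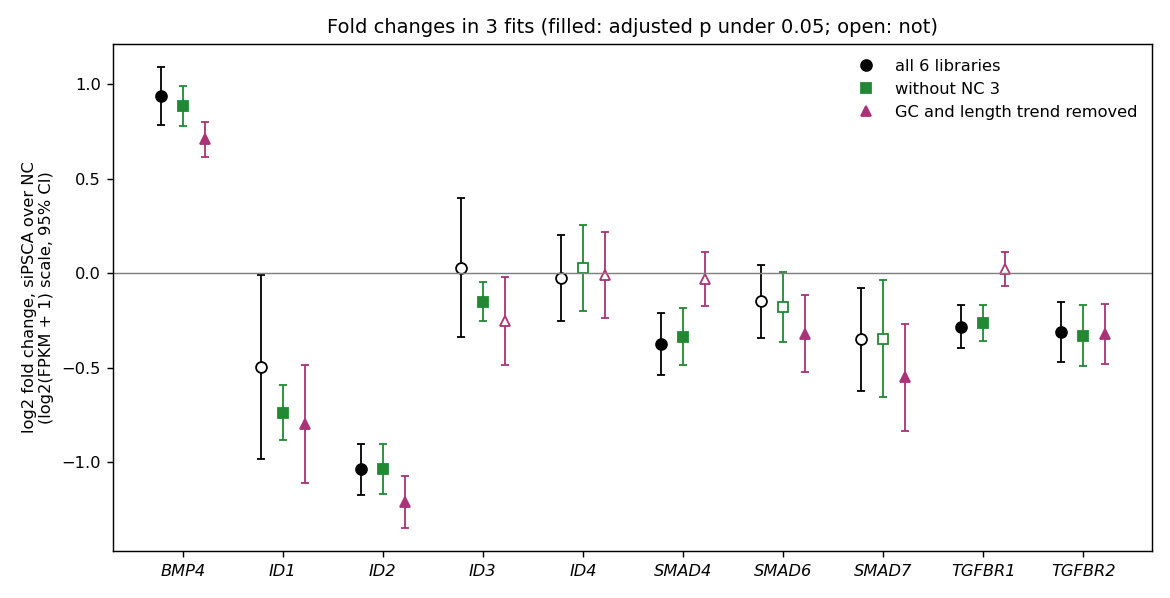
Log2 fold change of siPSCA over NC (y axis, log2(FPKM + 1) scale, bars: 95% CI) of the 10 genes in 3 fits; filled symbols passed an adjusted p of 0.05. BMP4, ID2 and TGFBR2 are filled in all 3 fits, SMAD4 and TGFBR1 move to -0.03 and 0.02 in the GC-corrected fit, and ID1 is filled at -0.74 without NC 3.

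By level in NC, per length, the order was ID1, BMP4, ID2, ID3, TGFBR1, TGFBR2, SMAD4, SMAD7, SMAD6 and ID4. In this order the ranges of ID2 and ID3, of TGFBR2 and SMAD4 and of SMAD6 and ID4 overlapped. In siPSCA BMP4 stood first with 139 and ID1 second with 98.1, and ID3 with 36.5 stood above ID2 with 19.4, in each case without overlap. TGFBR2 and SMAD4 again overlapped, as did SMAD6 and ID4. These are bulk RNA values, in which fewer cells expressing a gene and less RNA per cell cannot be told apart.

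The wider pathway was read from 8 hand-written lists with 136 genes in all, the 10 genes included, of which 71 were tested. Of these, 15 passed higher and 31 lower (64.8%, against 50.7% of all tested genes), and the median log2 fold change was -0.14 against 0.01 over all tested genes. In the GC-corrected fit 7 passed higher and 23 lower, where 39.9% of all genes passed. Without NC 3 there were 17 higher and 33 lower, against a background of 53.8%. The median GC content of the lists ranged from 40.2% for the SMADs to 64.5% for the extracellular regulators, and how far base composition contributed to these counts was not tested.

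Of 32 ligands, 8 were tested, 3 passed higher and none passed lower (median 0.33). Beside BMP4 these were AMH, the anti-Müllerian hormone, with 4.28 ± 2.67 in NC and 11.5 ± 0.541 in siPSCA (log2 fold change 1.42, adjusted p = 0.0351), and BMP7 at 0.32. AMH was 0.88 without NC 3, in which it had 54 reads against 264 and 250 in the other NC libraries. AMH was 0.31 and BMP7 0.03 in the GC-corrected fit, neither past the threshold, and the median of the list was -0.02. TGFB1, the prototype TGF-beta ligand, was 0.33 without passing (adjusted p = 0.0928) and fell by 0.27 in that fit (adjusted p = 0.00383).

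Of 18 receptors and co-receptors 10 were tested, 1 passed higher and 6 lower (median -0.30), and with the GC correction 0 passed higher and 4 lower (median 0.01). The type II BMP receptor BMPR2 fell most, from 7.67 ± 0.521 to 4.03 ± 0.367 (SD, n = 3 each), which is a log2 fold change of -0.79 (adjusted p = 0.00116). ACVR2B was -0.47, BMPR1A -0.35 and ACVR1 -0.31, all past the threshold, and the activin type I receptor ACVR1B rose by 0.28. ACVR2A was -0.20 without passing (adjusted p = 0.0978). ACVR1C, ACVRL1, BMPR1B and AMHR2 lay under the minimum and did not pass in the uncorrected model without it. In the GC-corrected fit TGFBR2, BMPR2 (-0.39), ACVR2B (-0.27) and ACVR1 (-0.22) passed lower, BMPR1A was -0.01 and ACVR1B was 0.11 without passing (adjusted p = 0.121).

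Of 8 SMADs 5 were tested, and SMAD2 (-0.37), SMAD4 and SMAD5 (-0.39) fell, with SMAD5, the most abundant, going from 15.7 ± 0.461 to 11.8 ± 0.476 (SD, n = 3 each). SMAD1 was -0.03 (adjusted p = 0.806) and SMAD3 -0.14 (adjusted p = 0.0713). With the correction for GC content SMAD2 was 0.07, SMAD5 -0.02, and SMAD3 was past the threshold at -0.16, with a median of -0.02 over the list. SMAD9, the remaining BMP-regulated SMAD, lay under the minimum with a mean FPKM of 1.27 in NC and 0.480 in siPSCA. It had 118, 139 and 118 reads in NC and 49, 53 and 43 in siPSCA. In the model without a minimum SMAD9 fell by 0.62 (adjusted p = 0.0139), and by 0.52 in the GC-corrected fit (adjusted p = 0.0210).

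Extracellular regulators had 4 higher and 2 lower of 8 tested (median 0.52), and 0 higher and 3 lower with the GC correction (median -0.03). The activin antagonist FSTL3 (0.89), the BMP antagonist NBL1 (0.88) and the latent TGF-beta binding proteins LTBP3 (0.81) and LTBP4 (0.80) rose, and none of these 4 passed in the GC-corrected fit, with values of 0.24, 0.19, 0.09 and 0.12. Their GC contents were 64.4% to 67.8%. Without NC 3 all 4 passed, with NBL1 at 0.56 and LTBP4 at 0.50. TWSG1 (-0.42) and the decoy receptor BAMBI (-0.44) fell and passed in that fit as well, at -0.15 and -0.55. The BMP antagonist CHRD, named after its values were seen, was 0.24 without passing (adjusted p = 0.292) and turned to -0.37 with the GC correction (adjusted p = 0.0171).

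Intracellular regulators had 5 higher and 12 lower of 22 tested (median -0.32), and 3 higher and 6 lower with the GC correction (median -0.09). The largest falls were those of SKIL, a SMAD co-repressor (-1.06), the ubiquitin ligase SMURF2 (-0.82), the kinase MAP3K7 (-0.63) and its partner TAB2 (-0.58). These 4 passed in the GC-corrected fit, at -0.71, -0.51, -0.31 and -0.31. Of the E protein partners of ID proteins, TCF3 rose by 0.63 and TCF12 was -0.34, past the threshold, and in that fit they were 0.17 and -0.02, with TCF3 past the threshold.

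BMP-responsive transcripts had 0 higher and 2 lower of 7 tested (median -0.27), namely ID2 and BAMBI. These are 28.6% of the 7, where 50.7% of all tested genes passed and 24.2% passed lower. BAMBI had an FPKM of 6.61, 5.53 and 7.07 in NC and 4.50, 4.40 and 4.41 in siPSCA. The homeobox genes MSX1 and MSX2 were 0.36 (adjusted p = 0.204) and 0.04 (adjusted p = 0.534). In the GC-corrected fit the list had 4 lower and 0 higher, with ID1 and DLX2 (-0.71) added. Its median there was -0.55, against 0.02 over all tested genes, of which 39.9% passed. Without NC 3 the list also had 4 lower and 0 higher, with ID1 and ID3 added, where 53.8% of all tested genes passed.

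TGF-beta-responsive transcripts had 2 higher and 7 lower of 13 tested (median -0.40). ANGPTL4, a secreted lipase inhibitor that also responds to hypoxia and PPAR ligands, had the largest fall, from 18.3 ± 5.05 to 4.68 ± 0.358 (SD, n = 3 each), which is a log2 fold change of -1.73 (adjusted p = 0.00169). SKIL is also among the genes of this list that fell, as given above. KLF10, the TGF-beta-inducible early gene, was -0.67 and the AP-1 component JUNB -0.45, both past the threshold. The cell cycle inhibitor CDKN1A rose by 0.84 and the co-repressor TGIF1 by 0.28, whereas CDKN2B was -0.40, past the threshold. In the GC-corrected fit the list had 3 higher and 7 lower (median -0.27), but not the same genes throughout. ANGPTL4 was -2.30, JUNB -1.07, CDKN1A 0.47 and TGIF1 0.56 there. The matrix protein gene FN1 was among the 7 lower before the correction (-0.44) and was -0.10 after it, without passing, whereas TGFB1 was among the 7 lower after it.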

How the data were processed

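RNA of 6 libraries, 3 NC and 3 siPSCA, was compared. The authors deposited 1 table of FPKM values per gene, with gene length and position. The submitters' processing notes name GRCh38, and the positions of all 58735 genes were those of GENCODE 29. Aligner, counting program, strand setting and the test behind the study's DEGs are not given in the sources used here. Libraries were built with the NEBNext Ultra RNA kit. Multiplied by gene length and divided by the step of its library, 100% of the FPKM values above 0 gave whole reads (tolerance 0.02 reads). At this depth 1 read on 1 kilobase gave an FPKM of 0.0549 to 0.0595. Intervals from reads cover counting error only.

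Group differences were fitted to log2(FPKM + 1) with limma 3.58.1 (R 4.3.3), lmFit and eBayes with a trend, and the group as sole term. Genes needed a mean FPKM of 1. P-values are 2-sided and were adjusted by Benjamini and Hochberg over all tested genes. GC content was that of the longest GENCODE 29 transcript, and its trend, with that of log2 length, was removed per library by natural splines in the GC-corrected fit. In simulated reads of 13796 genes, 176 of 200 genes with a log2 change of 1 were recovered, with 14 false calls among the unchanged genes. None of 200 with a change of 0.5 were recovered, and a run without changes gave 1 false call. The simulation used a dispersion set by hand, alike for all genes, and few changed genes, whereas 50.7% of tested genes passed in the data. It therefore does not give the smallest change detectable here. Python 3.11.15 with pandas 2.3.3, numpy 2.4.6 and matplotlib 3.10.9 served for the rest.

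The 10 genes, lists, motifs and tests were chosen with earlier results of these data known. Named beyond the 10 genes were PSCA, all SMADs and type I and II receptors, up to 4 called genes without overlap per list with the largest change, markers, overlapping genes and the 3 genes most like the gene with the lowest p. TGFB1, TWSG1, CHRD, FN1, MSX1, MSX2, DLX2, KLF10, JUNB, CDKN2B and TGIF1 were named after their values were seen. Alternatives were another pseudocount, other FPKM minima, TPM, median-of-ratios scaling, limma-voom, GC and length removal, another call rule, a replicate block and leaving out each library.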

Additional observations from a re-analysis of the deposited data

How the results depend on the processing

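BMP4 and ID2 kept their direction and passed in all 16 alternatives, and TGFBR2 in 15. Among those of the 10 genes that entered each test, the count called lower was 1 with an unadjusted p and fold change. It was 3 after removal of the GC and length trend, with or without a replicate block. With single libraries left out it was between 4 and 6, while the count called higher was always 1. Of all 13796 genes tested, 3434 passed with an unadjusted p and fold change, and 4627 to 7425 with single libraries left out. After removal of the trend 5509 of 13792 passed, and 4657 with the block as well. ID3 was -0.016 with TPM, -0.25 after removal of the GC and length trend (with or without a replicate block) and -0.15 to 0.13 with single libraries left out, lowest without NC 3. ID4 was -0.073 to 0.029 with single libraries left out. TGFBR1 was 0.023 after removal of the GC and length trend, with or without a replicate block.

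Over the pathway lists, genes called higher numbered 9 without an FPKM minimum, 7 after removal of the GC and length trend, 6 with that removal and a replicate block, 8 with an unadjusted p and fold change, and 7 to 17 with single libraries left out, with 7 without siPSCA 1 and 9 each without siPSCA 2 and siPSCA 3. Over all tested genes, higher calls went from 3668 to 2299, 2402 and 2799 without these 3 libraries. Genes called lower numbered 10 with an unadjusted p and fold change and 28 to 33 with single libraries left out. The cause was not tested.

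Replicates share only a number: deviations of same-numbered libraries correlated at 0.0955, 0.0132 and 0.134, and NC 2 correlated best with siPSCA 1. With a replicate block 14 pathway genes passed higher and 32 lower, 5 of the 10 genes passed lower, and ID1 passed (adjusted p = 0.0439). With TPM ID1 passed too (adjusted p = 0.0444). In all, ID1 passed in 5 of the 16 alternatives. For ID4 a difference was not detectable at this depth.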
